A study of Homo sapiens with 12 samples.

Results

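Lowering and raising STK17B, a kinase gene, were compared in 1 myeloma cell line: for each gene the change that came with knockdown was set against the change that came with overexpression. The knockdown effect was the mean log2 level of 4 libraries with STK17B hairpins minus shControl, and the overexpression effect was overexpression minus Vector. The contrast is the first effect minus the second. It used 10 of the 12 libraries of the series and 12731 of the 29607 genes listed, those with a TPM of at least 1 in at least 2 of the 12 libraries. TPM, the deposited unit, is a level scaled to gene length and to the same total in every library. At the edge of that filter, the second highest of 12 values was 1.0001 TPM for RPL36A-HNRNPH2 and 1.0002 for LINC00921, which entered, and 0.9991 for METTL20 and 0.9989 for LRRC37A2, which did not.

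All libraries came from KMS11, an established line of malignant plasma cells, by poly(A) selection. Each of the 5 groups had 2 libraries and is labelled as untreated: shControl and Vector with genotype WT, sh1 and sh2 as STK17B shRNA, and the last as STK17B overexpression. The labels do not say whether the 2 libraries of a group were grown apart, or name the promoter, the hairpin sequences or the clones. What the p-values capture is the variation between such libraries, possibly technical only. In bulk RNA, fewer cells of a type and less RNA per cell cannot be told apart.

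STK17B belongs to the death-associated protein kinases, a family tied to apoptosis and autophagy, and the study's title links it to ferroptosis, an iron-dependent death by lipid peroxidation, and to drug resistance. Short hairpins direct the breakdown of a matching mRNA, whereas a cDNA adds transcripts of the gene. The comparison asks which transcripts went opposite ways when STK17B was lowered and raised, and which went the same way in both.

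Both control columns carry a number and no group name, and they were read as shControl and Vector from the library numbers in the labels, an inference. Vector and shControl themselves differed: limma called 21.4% of tested genes higher and 7.86% lower in Vector (median log2 difference 0.085). A count of genes moved oppositely or alike therefore depends on which control serves which effect. Exchange takes the Vector minus shControl difference from the knockdown effect and adds it to the overexpression effect. By construction the contrast of a gene higher in Vector then goes down, and that of a gene lower in Vector goes up. Exchange does not show which reading of the columns is right. Many results below are given with the 2 control columns exchanged where that ends a call or turns a direction. Of 90 named genes with a called contrast, 66 kept direction and call on exchange, and 24 of the 66 moved by over 1.5 times. Depth is unknown, since TPM keeps none; 16689 to 17354 genes were above 0 in the 10 libraries. Markers of other blood and stromal cells were low, with summed levels of 9 or 10 markers at or below 8.13 TPM for the myeloid, erythroid and stromal lists. The T and NK cell list, of which 2 of 10 genes reached 1 TPM (CD7 and CD3E), summed to 143 TPM in both shControl libraries, 220 to 259 with the hairpins, 222 and 235 in Vector and 417 and 450 with overexpression. Both genes rose in both effects (CD7 0.72 and 0.92, CD3E 0.59 and 0.77), although the knockdown rise of CD7 was 0.031 on exchange. The defining T and NK cell markers CD3D, CD3G and KLRD1 were listed at 0 in all 10 libraries.

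STK17B checked the labels. STK17B (chr2:196133566-196176503, minus strand, GRCh38) stood at 27.1 and 27.4 TPM in shControl, 12.7 and 10.9 with sh1, 14.7 and 14.5 with sh2, 28.2 and 31.5 in Vector and 94.1 and 84.5 with overexpression. All 4 hairpin libraries were below both controls and both overexpression libraries were above every other library. STK17B had a knockdown effect of -0.998 (SE 0.073, limma adjusted p = 7.0e-06) and an overexpression effect of 1.55 (SE 0.084, limma adjusted p = 2.4e-06), a contrast of -2.55 (SE 0.111, limma adjusted p = 8.9e-07). TPM does not separate transcripts of the cDNA from those of the resident gene. STK17A, the closest relative of STK17B in the family, stood at 34.7 and 33.9 TPM in shControl, 50.5 and 51.2 with sh1, 51.1 and 47.6 with sh2, 30.7 and 29.3 in Vector and 35.9 and 35.7 with overexpression. STK17A was higher in both effects, 0.53 (SE 0.040, limma adjusted p = 8.0e-06) and 0.25 (SE 0.046, limma adjusted p = 0.0027), but the overexpression call was lost under median-of-ratios rescaling (0.14) and with the controls exchanged (0.06). The other tested members, DAPK1 (-0.14 and -0.06) and DAPK3 (0.15 and 0.14), passed neither test as reported, though each passed under some of the other settings.

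Genes called in both effects more often moved alike than oppositely, and that order turned when the controls were exchanged. The knockdown effect had 3330 genes higher (26.2% of those tested) and 2570 lower (20.2%), together 46.3%, and the overexpression effect had 3381 higher (26.6%) and 1308 lower (10.3%), together 36.8%, at a limma adjusted p below 0.05. Counts for the gene lists below are best read against these shares. Libraries of the groups did not overlap in 57.8% of tested genes for the knockdown and 69.3% for overexpression. Called in both were 2801 genes, 47.5% of the knockdown calls and 59.7% of the overexpression calls. Of these 2139 (76.4%) moved alike: 1490 rose in both (11.7% of tested genes) and 649 fell in both (5.1%). The other 662 (23.6%) moved oppositely: 479 fell in the knockdown and rose with overexpression (3.76%), and 183 rose in the knockdown and fell with overexpression (1.44%). Exchange of the controls gave 2434 genes moved oppositely and 1509 alike, so that 61.7% of genes called in both were then opposite. The effects, over genes that are no independent replicates, had a Pearson r of 0.205 and a Spearman rho of 0.306 over 12731 genes, and a Pearson r of -0.087 with the controls exchanged.

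**Figure D1:**
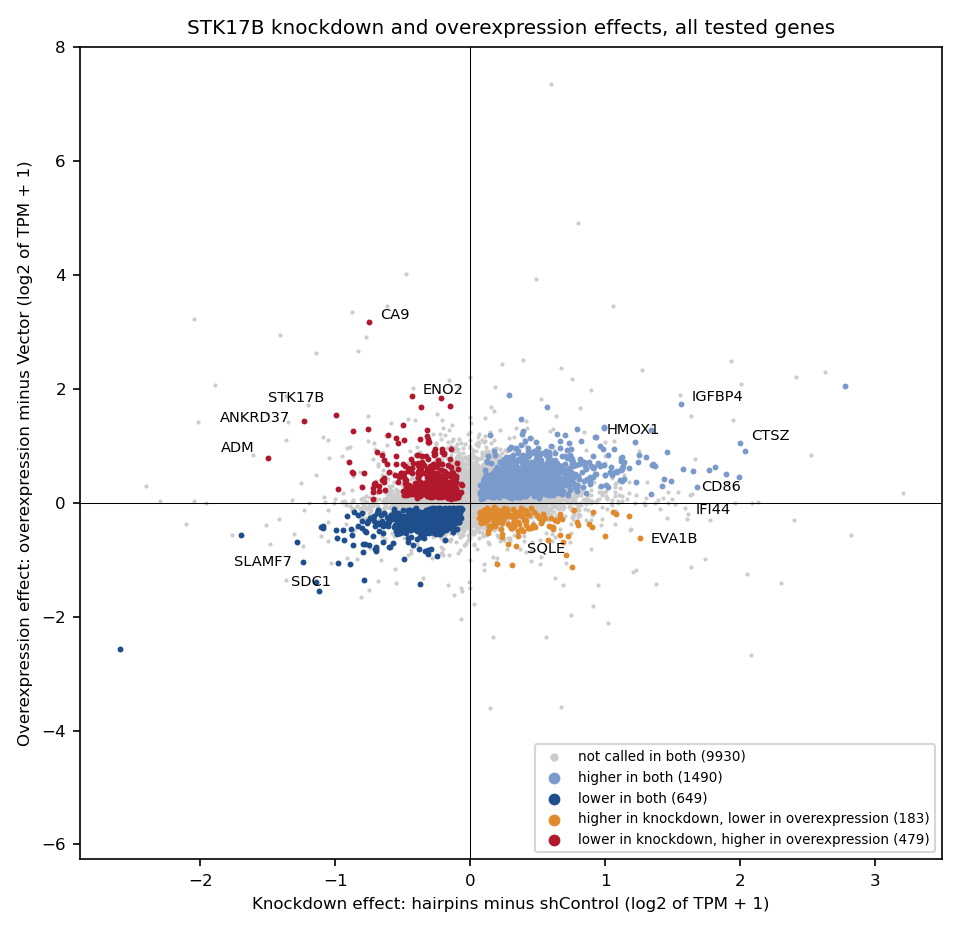
Each point is 1 of 12731 tested genes, with its knockdown effect on the x axis and its overexpression effect on the y axis, both in log2(TPM + 1). Colours mark the 4 classes of genes called in both effects and grey the rest; STK17B and hypoxia genes such as CA9 and ANKRD37 lie in the upper left, and the 1490 genes higher in both form the largest class.

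The difference between the effects was itself called for 3806 genes, 1445 higher (11.4%) and 2361 lower (18.5%) in the knockdown effect than in the overexpression effect. Of these 662 were the genes moved oppositely, whose contrast passes because of how they were chosen. Another 1471 were called in the knockdown effect only, 1023 in the overexpression effect only, 536 in both alike and 114 in neither. Contrasts of 1 log2 unit or more numbered 87 higher and 132 lower. Of the contrast calls 38.0% were higher; the median of ratios gave 55.6% and quantile normalization 52.0%, and the median contrast of all tested genes was -0.05 as deposited, 0.017 and 0.011. With the controls exchanged 5763 genes were lower and the median contrast was -0.243, so small contrasts are best read against those medians.

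Genes differed in how well their class held. Of the 479 genes lower in the knockdown and higher with overexpression, 166 were in the same class under 3 other scalings and with the controls exchanged, as were 72 of the 183 genes moved the other way, 422 of the 1490 that rose in both and 308 of the 649 that fell in both. Most shared changes were small: both effects reached 0.5 log2 units in 23 and 8 genes moved oppositely and in 168 and 31 genes moved alike. Leaving out shControl replicate 2 took the first class from 479 to 310 genes.

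**Figure D2:**
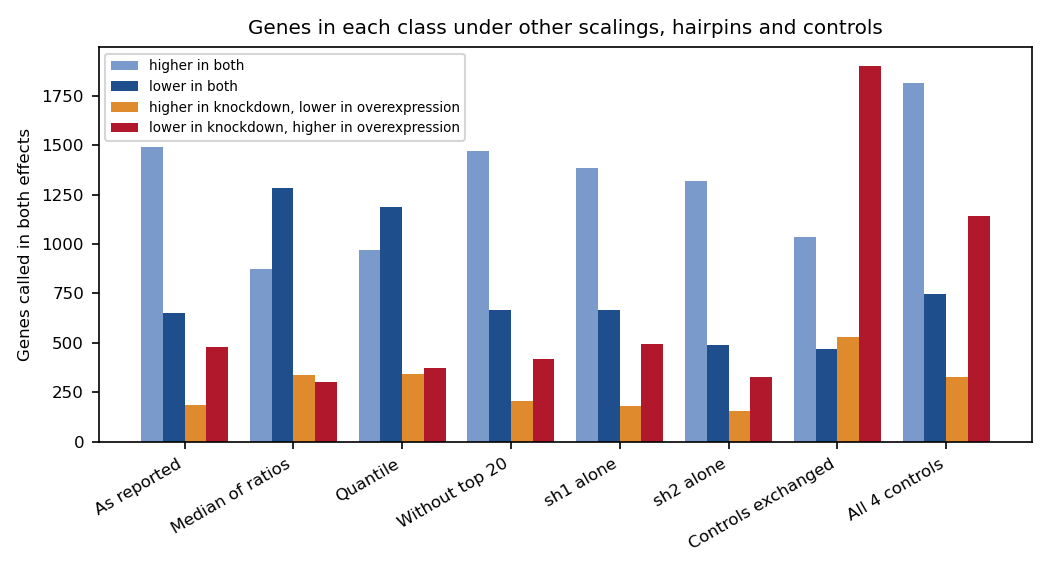
Bars give the number of genes (y axis) in the 4 classes called in both effects, for the values as reported and for 7 other settings (x axis). Genes lower in the knockdown and higher with overexpression go from 479 to 1903 when the controls are exchanged, and genes higher in both from 1490 to 875 after the median of ratios.

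Hypoxia and glycolysis genes rose with overexpression, and most fell in the knockdown as reported. HIF transcription factors, which oxygen-dependent prolyl hydroxylases keep low, switch on glucose uptake, glycolysis and vascular signals. Of 33 tested members all 33 rose with overexpression (median 0.846, against 0.081 over all genes), and 23 fell and 4 rose in the knockdown (median -0.266, against 0.029). The contrast was lower in 32 members and higher in 1 (median -1.112). In 23 members the effects were opposite, and 12 of those 23 were so under every scaling and with the controls exchanged. The overexpression effect kept its size on exchange (33 rose, median 0.702), but the knockdown effect did not: 10 then rose and 12 fell, with a median of 0.004. The list was lower in Vector than in shControl in 20 members and higher in none (median -0.17).

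The core letters bound by HIF, ACGTG or GCGTG, were searched on both strands in the 250 bases before each RefSeq start (GRCh38.p14). Of 29 hypoxia list members with a promoter entry 20 held them (69.0%), against 59.1% of 9640 promoters of tested genes and 43.1% of all 27305 promoters. The cholesterol list, described further on, held them in 15 of 18 (83.3%), a higher share. The windows of the 2 members with the largest contrasts are shown, 5′ to 3′ on the gene's plus strand, with the letters in capitals. ANKRD37 (chr4:185396591-185396840) has 3 matches, of which 2 overlap on opposite strands in CACGTG, and CA9 (chr9:35673678-35673927) has 1 on the opposite strand. A match describes these letters and is no evidence of binding.
ANKRD37: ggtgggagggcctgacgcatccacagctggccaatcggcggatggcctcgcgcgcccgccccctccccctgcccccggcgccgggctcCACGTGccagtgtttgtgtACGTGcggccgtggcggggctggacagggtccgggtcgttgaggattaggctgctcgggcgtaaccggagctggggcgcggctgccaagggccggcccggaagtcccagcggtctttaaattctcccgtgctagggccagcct
CA9: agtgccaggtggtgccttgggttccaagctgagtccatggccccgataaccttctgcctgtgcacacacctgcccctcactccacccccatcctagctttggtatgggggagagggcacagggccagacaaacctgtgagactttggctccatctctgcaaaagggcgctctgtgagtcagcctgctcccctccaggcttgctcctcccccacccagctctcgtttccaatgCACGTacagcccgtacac

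CA9, the hypoxia-induced carbonic anhydrase IX, had the largest contrast of the list. CA9 stood at 3.19 and 4.42 TPM in shControl, 1.77 and 1.88 with sh1, 1.88 and 1.82 with sh2, 2.35 and 2.23 in Vector and 29.1 and 28.1 with overexpression. Overexpression libraries were far above all others, whereas the hairpin libraries lay below shControl but close to Vector. CA9 had a knockdown effect of -0.75 (SE 0.111, limma adjusted p = 5.0e-04) and an overexpression effect of 3.17 (SE 0.128, limma adjusted p = 4.3e-07); with the controls exchanged its knockdown effect was -0.21 and no longer passed. ANKRD37, an ankyrin repeat protein induced by hypoxia, stood at 31.6 and 32.6 TPM in shControl, 11.2 and 12 with sh1, 14.5 and 15.1 with sh2, 25.3 and 25.6 in Vector and 69.7 and 71.9 with overexpression. No group overlapped its control in either effect, which the rule for naming genes of a class required. ANKRD37 had a knockdown effect of -1.23 (SE 0.043, limma adjusted p = 1.6e-07) and an overexpression effect of 1.44 (SE 0.050, limma adjusted p = 2.0e-07). ADM, which encodes the vasodilator adrenomedullin, stood at 5.33 and 5.42 TPM in shControl, 0.904 and 0.701 with sh1, 1.74 and 1.89 with sh2, 4.12 and 4.03 in Vector and 8.11 and 7.5 with overexpression, and its hairpin libraries were the lowest of the 10. ADM had a knockdown effect of -1.50 (SE 0.076, limma adjusted p = 8.8e-07) and an overexpression effect of 0.80 (SE 0.087, limma adjusted p = 1.5e-04).

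Enzymes of glucose use moved with them. ENO2, an enolase, stood at 13.4 and 14.8 TPM in shControl, 10.2 and 10.9 with sh1, 9.05 and 10.5 with sh2, 13.4 and 11.9 in Vector and 50.1 and 47.3 with overexpression. The rise with overexpression was 1.87 (SE 0.087, limma adjusted p = 9.7e-07), while the fall in the knockdown was smaller at -0.43 (SE 0.076, limma adjusted p = 0.0013). PDK1, which keeps pyruvate out of mitochondria by inhibiting pyruvate dehydrogenase, stood at 35.5 and 38.7 TPM in shControl, 24.4 and 19 with sh1, 24.6 and 22.9 with sh2, 40.03 and 44.3 in Vector and 81.3 and 76.6 with overexpression. PDK1 had a knockdown effect of -0.69 (SE 0.088, limma adjusted p = 2.0e-04) and an overexpression effect of 0.89 (SE 0.102, limma adjusted p = 1.8e-04). The kinase PFKFB4 (-0.36 and 1.68), the growth factor VEGFA (-0.61 and 1.19), the hexokinase HK2 (-0.64 and 0.75) and lactate dehydrogenase LDHA (-0.48 and 0.64) also fell in the knockdown and rose with overexpression; on exchange the knockdown value of PFKFB4 was 0.088 and did not pass. The lactate exporter SLC16A3 rose in both (0.29 and 1.89), and the glucose transporter SLC2A3 was the only member with a higher contrast, rising by 1.08 in the knockdown and 0.54 with overexpression. On exchange no member had a called higher contrast. EGLN1, the oxygen-sensing prolyl hydroxylase and itself a HIF target, stood at 37.6 and 39.3 TPM in shControl, 39.8 and 38.2 with sh1, 38.9 and 38.4 with sh2, 31.9 and 33.8 in Vector and 63.1 and 59.7 with overexpression. EGLN1 rose with overexpression by 0.88 (SE 0.050, limma adjusted p = 3.4e-06) and was at 0.01 in the knockdown (SE 0.043, limma adjusted p = 0.82). Vector lay below shControl for EGLN1, and on exchange its contrast kept direction and call but moved by over 1.5 times.

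Other genes with the largest opposite changes of this direction also included hypoxia-responsive ones that the list did not hold. PLOD1, a collagen lysyl hydroxylase, stood at 42.1 and 44.2 TPM in shControl, 22.5 and 22.7 with sh1, 23.4 and 23.8 with sh2, 41.5 and 40.8 in Vector and 100.2 and 101 with overexpression. PLOD1 had a knockdown effect of -0.87 (SE 0.036, limma adjusted p = 3.2e-07) and an overexpression effect of 1.27 (SE 0.042, limma adjusted p = 2.0e-07). HILPDA, a lipid droplet protein that inhibits lipolysis, stood at 40.3 and 38.2 TPM in shControl, 21.1 and 23.7 with sh1, 21.5 and 25.1 with sh2, 33.2 and 31.8 in Vector and 80.8 and 82.6 with overexpression. HILPDA had a knockdown effect of -0.76 (SE 0.065, limma adjusted p = 1.9e-05) and an overexpression effect of 1.3 (SE 0.075, limma adjusted p = 3.8e-06). CLDN14, a tight junction claudin, had 2.96 and 3.75 TPM in shControl and 1.11 to 1.57 TPM with the hairpins, and 3.34 and 3.58 TPM in Vector against 6.12 and 6.62 with overexpression. CLDN14 had effects of -0.90 and 0.72. ANKRD37, PLOD1, ADM, HILPDA, CLDN14, PDK1, ENO2 and STK17B kept both calls and both directions under all 3 other scalings and with the controls exchanged.

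**Figure D3:**
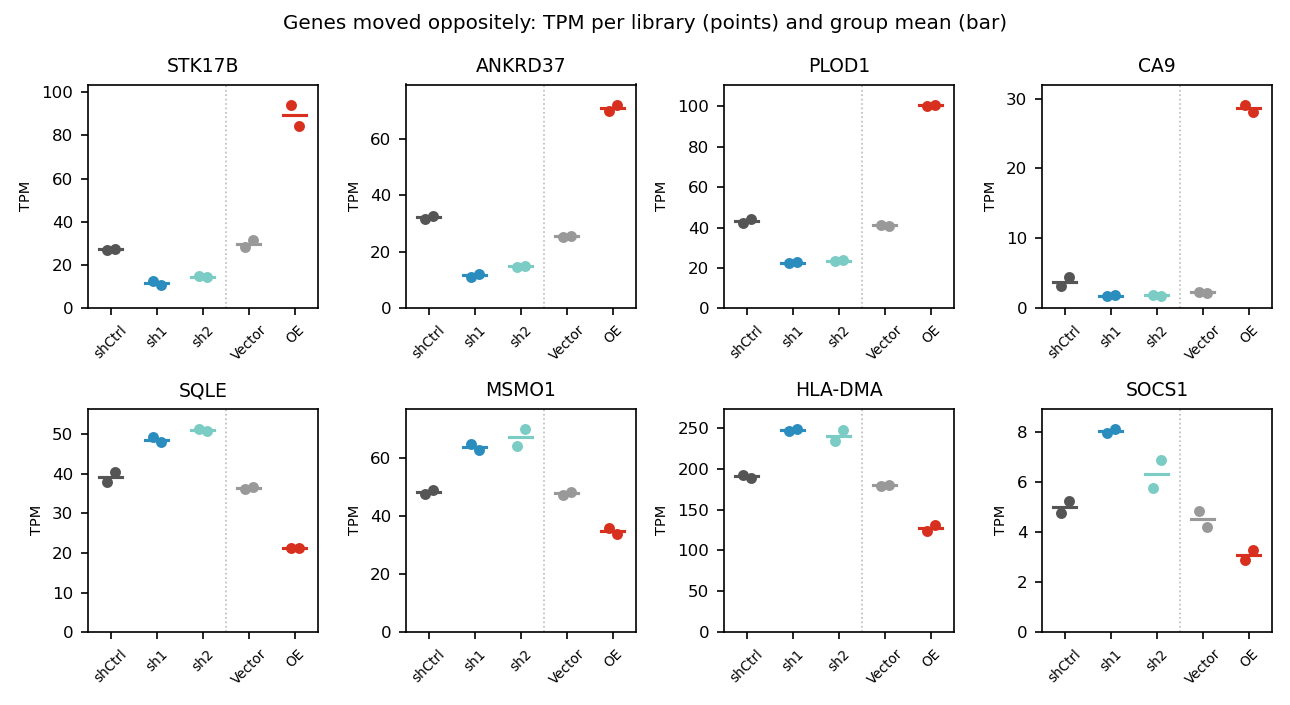
Each panel gives the TPM (y axis, from 0) of 1 gene in the 10 libraries (points) by group (x axis), with the group mean as a bar; shCtrl is shControl and OE is overexpression. STK17B, ANKRD37, PLOD1 and CA9 are lowest with the hairpins and highest with overexpression, and SQLE, MSMO1, HLA-DMA and SOCS1 are highest with the hairpins and lowest with overexpression.

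Most cholesterol synthesis genes fell with overexpression, and 11 of 24 also rose in the knockdown. Those 11 did so with either assignment of controls. SREBP-2, encoded by SREBF2, switches on the enzymes that build cholesterol from acetyl-CoA when sterols in the endoplasmic reticulum run low. Of 24 tested members 12 rose and 4 fell in the knockdown (50.0% and 16.7%, against 26.2% and 20.2% of all tested genes). Their median was 0.125, against 0.029 over all genes. With overexpression 20 fell and 1 rose (83.3% and 4.2%, against 10.3% and 26.6%), with a median of -0.418 against 0.081. The contrast was higher in 20 and lower in 1 (median 0.556). In 11 members the knockdown effect was up and the overexpression effect down, and all 11 stayed in that class under the 3 scalings and with the controls exchanged, which gave 18 higher and 1 lower in the knockdown and 20 lower with overexpression.

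The enzymes are described in the order of the pathway. HMGCS1, which makes HMG-CoA, stood at 29.2 and 29.2 TPM in shControl, 39.1 and 36.9 with sh1, 38.5 and 36.4 with sh2, 29.8 and 29.5 in Vector and 21.2 and 17.8 with overexpression. HMGCS1 had a knockdown effect of 0.36 (SE 0.061, limma adjusted p = 0.0012) and an overexpression effect of -0.58 (SE 0.071, limma adjusted p = 2.4e-04). Mevalonate kinase MVK was at 0.32 and -0.41. SQLE, the squalene epoxidase, stood at 37.8 and 40.4 TPM in shControl, 49.3 and 47.9 with sh1, 51.3 and 50.8 with sh2, 36.2 and 36.7 in Vector and 21.3 and 21.1 with overexpression. Every hairpin library was above both controls and both overexpression libraries were the lowest. SQLE had a knockdown effect of 0.34 (SE 0.039, limma adjusted p = 1.0e-04) and an overexpression effect of -0.75 (SE 0.045, limma adjusted p = 5.0e-06), the largest contrast of the list (1.10). CYP51A1, the lanosterol demethylase, stood at 39.5 and 40.1 TPM in shControl, 47.7 and 45.8 with sh1, 50.4 and 50.1 with sh2, 36.7 and 37.3 in Vector and 22.6 and 21.5 with overexpression, and its effects were 0.28 (SE 0.041, limma adjusted p = 4.7e-04) and -0.72 (SE 0.047, limma adjusted p = 7.1e-06). MSMO1, the sterol C4 oxidase of the next steps, stood at 47.9 and 49.2 TPM in shControl, 64.8 and 62.9 with sh1, 64.4 and 70.2 with sh2, 47.5 and 48.5 in Vector and 36 and 33.8 with overexpression. MSMO1 had a knockdown effect of 0.43 (SE 0.044, limma adjusted p = 5.0e-05) and an overexpression effect of -0.45 (SE 0.050, limma adjusted p = 1.6e-04).

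Not every member followed. INSIG1, which holds the SREBP escort protein in the endoplasmic reticulum, fell in both effects (-0.99 and -0.61), as did EBP (-0.23 and -0.41), but on exchange EBP no longer passed in the knockdown (-0.015). SREBF2 itself was in the opposite class (0.19 and -0.13). A sterol element spelled TCACNCCAC was searched in the promoter windows on both strands; 0.9% of the promoters of tested genes held it, and 1 of 18 list members with an entry did (5.6%), against 2 of 29 in the hypoxia list (6.9%). That member is SREBF2 (chr22:41832855-41833104, plus strand), shown because it is the only one and so chosen after its values were seen, with the element in capitals.
SREBF2: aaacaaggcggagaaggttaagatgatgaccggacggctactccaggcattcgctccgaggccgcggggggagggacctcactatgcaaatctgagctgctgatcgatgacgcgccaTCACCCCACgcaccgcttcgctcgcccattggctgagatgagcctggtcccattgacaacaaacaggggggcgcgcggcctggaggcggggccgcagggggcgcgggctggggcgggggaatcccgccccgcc

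Fatty acid genes shared the fall with overexpression only in part. Of 20 tested members 5 rose and 6 fell in the knockdown (25% and 30%, against 26.2% and 20.2% of all tested genes). With overexpression 2 rose, against 26.6% of all tested genes, and 6 fell (30%, against 10.3%). After the median of ratios none rose and 11 fell with overexpression, and after quantile normalization none rose and 8 fell. The contrast as reported was higher in 7 and lower in 2 (median 0.111). On exchange 9 rose and 7 fell with overexpression, and 6 contrasts were higher and 8 lower (median -0.075). FADS2, a desaturase of polyunsaturated fatty acids, stood at 100 and 103 TPM in shControl, 77.8 and 75.2 with sh1, 86.3 and 88.8 with sh2, 82.2 and 80.4 in Vector and 42.6 and 43.4 with overexpression. FADS2 fell by 0.31 in the knockdown (SE 0.030, limma adjusted p = 3.5e-05), a call lost with the controls exchanged (0.01), and fell by 0.90 with overexpression (SE 0.034, limma adjusted p = 3.1e-07). SCD, which makes monounsaturated fatty acids, stood at 238 and 238 TPM in shControl, 206 and 189 with sh1, 220.1 and 223 with sh2, 240.2 and 246 in Vector and 157 and 151 with overexpression. SCD fell by 0.19 (SE 0.036, limma adjusted p = 0.0023) and by 0.66 (SE 0.042, limma adjusted p = 6.3e-06), and the fall with overexpression was the larger (contrast 0.47, SE 0.055, limma adjusted p = 2.5e-04). ACACA, acetyl-CoA carboxylase, fell with overexpression (-0.68, SE 0.066, limma adjusted p = 7.2e-05) from 17.2 and 16.9 TPM in Vector to 10.4 and 10.2 TPM, and was at -0.11 in the knockdown. The latter passed after the median of ratios (-0.14) and quantile normalization (-0.16). FASN, the synthase, fell in both (-0.38 and -0.82). ELOVL6, an elongase, rose in the knockdown (0.41), and with the controls exchanged its contrast turned from 0.44 to -0.42.

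Class II and other B cell genes rose in the knockdown, and several fell with overexpression. MHC class II molecules present peptides to CD4 T cells; their genes depend on the coactivator CIITA, and plasma cells normally silence them. Of 17 tested members 13 rose and none fell in the knockdown (median 0.354). The share that rose was 76.5%, against 26.2% of all tested genes. With overexpression 9 fell and none rose (median -0.114), and the share that fell was 52.9%, against 10.3%. The contrast was higher in 13 and lower in 1, BCL6 (median 0.517). In 8 members the effects were opposite, and 5 of those 8 stayed so under the 3 scalings and the exchange: HLA-DMA, HLA-DMB, HLA-DRA, HLA-DPA1 and HLA-DPB1. With the controls exchanged the overexpression effect had 6 members higher and 7 lower. HLA genes are variable between people and alike in sequence, so the division of reads among them is uncertain.

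HLA-DMB and HLA-DMA encode the chaperone that loads peptides onto class II molecules. HLA-DMB stood at 57.4 and 56.2 TPM in shControl, 92.6 and 90.01 with sh1, 84.8 and 86.3 with sh2, 58.9 and 58.9 in Vector and 47.4 and 47.5 with overexpression. HLA-DMB had a knockdown effect of 0.63 (SE 0.032, limma adjusted p = 9.3e-07) and an overexpression effect of -0.31 (SE 0.037, limma adjusted p = 2.5e-04). HLA-DMA stood at 192 and 189 TPM in shControl, 246 and 249 with sh1, 234 and 247 with sh2, 179 and 180.3 in Vector and 123 and 132 with overexpression, with no overlap between groups in either effect. HLA-DMA had a knockdown effect of 0.35 (SE 0.034, limma adjusted p = 3.4e-05) and an overexpression effect of -0.49 (SE 0.039, limma adjusted p = 2.4e-05). HLA-DQA1, a chain of the presenting molecule HLA-DQ, stood at 736 and 740.2 TPM in shControl, 1357 and 1338 with sh1, 1178 and 1187 with sh2, 891 and 895 in Vector and 795 and 841 with overexpression. Its rise in the knockdown was 0.77 (SE 0.026, limma adjusted p = 1.4e-07), but its fall with overexpression (-0.13, SE 0.030, limma adjusted p = 0.0094) became -0.05 after quantile normalization and 0.15 with the controls exchanged. HLA-DOA, which restrains HLA-DM, rose in the knockdown (0.97, SE 0.074, limma adjusted p = 8.8e-06) from 5.51 and 6.3 TPM to 11.9 to 12.9 TPM and was at 0.19 with overexpression. CIITA fell with overexpression (-0.44) and was at -0.01 in the knockdown.

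The Y box, CTGATTGG on either strand, is part of the control region shared by class II genes. It lay in the promoter windows of 3 of 14 list members with an entry (21.4%), against 5.7% of the promoters of tested genes and 4.0% of all promoters. In the cholesterol list 6 of 18 (33.3%) held it, a higher share. The window of HLA-DMA (chr6:32953098-32953347, GRCh38.p14, written 5′ to 3′ on the gene's minus strand) is shown as 1 of these, with the box in capitals.
HLA-DMA: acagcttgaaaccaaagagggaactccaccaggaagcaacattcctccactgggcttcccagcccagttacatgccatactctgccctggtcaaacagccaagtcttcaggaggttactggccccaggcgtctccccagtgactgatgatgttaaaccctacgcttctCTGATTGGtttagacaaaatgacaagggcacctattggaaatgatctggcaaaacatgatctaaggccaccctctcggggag

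Further genes rose in the knockdown and fell with overexpression. P2RY10, a lysophospholipid receptor of lymphocytes, stood at 24.6 and 26.4 TPM in shControl, 46 and 38.6 with sh1, 41.7 and 45.7 with sh2, 32 and 35.2 in Vector and 22.2 and 21.8 with overexpression. P2RY10 had a knockdown effect of 0.73 (SE 0.073, limma adjusted p = 4.5e-05) and an overexpression effect of -0.59 (SE 0.084, limma adjusted p = 6.4e-04); with the controls exchanged the latter was -0.20 and did not pass. SOCS1, which inhibits JAK kinases and so dampens cytokine signals, stood at 4.76 and 5.23 TPM in shControl, 7.95 and 8.13 with sh1, 5.76 and 6.9 with sh2, 4.83 and 4.22 in Vector and 2.88 and 3.28 with overexpression. SOCS1 had a knockdown effect of 0.44 (SE 0.083, limma adjusted p = 0.0021) and an overexpression effect of -0.44 (SE 0.096, limma adjusted p = 0.0063), and both calls held under the 3 scalings and the exchange. SLC22A23, an orphan transporter, was at 0.60 and -0.43, the second -0.06 on exchange, and SLC26A11, an anion transporter, was at 0.67 and -0.56, which became 0.06 and 0.05. For EPHX1, the microsomal epoxide hydrolase, Vector was the highest group: it stood at 24.6 and 22.9 TPM in shControl, 32.6 and 34.4 with sh1, 31 and 33.6 with sh2, 38.9 and 38.1 in Vector and 27.4 and 28.8 with overexpression. Its effects of 0.46 and -0.44 both changed sign on exchange (-0.22 and 0.24). ST8SIA4, a polysialyltransferase, likewise went from 0.48 and -0.43 to -0.01 and 0.06.

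EVA1B, a membrane protein, had the largest opposite change of this direction. EVA1B stood at 2.36 and 3.08 TPM in shControl, 8.57 and 6.86 with sh1, 7.84 and 8.29 with sh2, 6.11 and 4.01 in Vector and 3.17 and 2.66 with overexpression. EVA1B had a knockdown effect of 1.26 (SE 0.159, limma adjusted p = 1.9e-04) and an overexpression effect of -0.61 (SE 0.184, limma adjusted p = 0.027), the second 0.08 on exchange. EVA1B (chr1:36322031-36324154, minus strand) lies inside SH3D21 (chr1:36306387-36324886, plus strand) on the other strand. SH3D21 rose with overexpression (1.37, SE 0.088, limma adjusted p = 6.8e-06) from 4.8 and 5.57 TPM to 15 and 14.9 TPM and was at -0.14 in the knockdown. Use of strand in the authors' counting is not given in the sources used here, so reads of the 2 genes may not have been told apart.

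Plasma cell genes fell in both the knockdown and the overexpression. Of 17 tested members 14 fell and none rose in the knockdown (median -0.532), and 11 fell and 3 rose with overexpression (median -0.249). In 11 members both effects were down, against 5.1% of all tested genes, and 9 of those 11 stayed so under the 3 scalings and the exchange. Only TNFRSF13B and IGJ were in the opposite class, and neither stayed there. The defining markers SDC1, TNFRSF17, XBP1, IRF4 and PRDM1 were all among the tested genes, as the label of a myeloma line has it.

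SDC1 encodes CD138, the surface proteoglycan by which plasma cells are sorted. SDC1 stood at 57.6 and 59.4 TPM in shControl, 25.7 and 24.1 with sh1, 34 and 34.5 with sh2, 51.5 and 51.2 in Vector and 23.3 and 24.8 with overexpression. All hairpin and overexpression libraries were below all 4 control libraries. SDC1 had a knockdown effect of -0.98 (SE 0.039, limma adjusted p = 2.7e-07) and an overexpression effect of -1.06 (SE 0.045, limma adjusted p = 5.7e-07), and the difference did not pass (contrast 0.09, SE 0.059, limma adjusted p = 0.31), though it did with the controls exchanged (0.46). SLAMF7, a surface receptor and the target of elotuzumab, stood at 18.9 and 21.7 TPM in shControl, 6.76 and 6.79 with sh1, 8.7 and 10.2 with sh2, 15.2 and 16.5 in Vector and 7.4 and 7.07 with overexpression. SLAMF7 had a knockdown effect of -1.24 (SE 0.073, limma adjusted p = 2.0e-06) and an overexpression effect of -1.03 (SE 0.084, limma adjusted p = 2.8e-05). ELL2, an elongation factor that favours secreted immunoglobulin mRNA, stood at 27.2 and 27.3 TPM in shControl, 14.3 and 11.3 with sh1, 16.7 and 16.4 with sh2, 27.4 and 27.2 in Vector and 16.5 and 15.2 with overexpression. ELL2 had a knockdown effect of -0.87 (SE 0.076, limma adjusted p = 2.0e-05) and an overexpression effect of -0.75 (SE 0.088, limma adjusted p = 2.1e-04). TNFRSF17, which encodes the survival receptor BCMA, stood at 299 and 296 TPM in shControl, 151 and 159.6 with sh1, 197 and 198 with sh2, 237 and 234 in Vector and 183 and 184 with overexpression. It fell more in the knockdown (-0.76) than with overexpression (-0.35; contrast -0.41, SE 0.038, limma adjusted p = 6.9e-05), but the contrast was 0.27 with the controls exchanged.

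The transcription factors of the list were not all in both. IRF4, on which myeloma cells depend, fell in both (-0.68 and -0.35), as did the B cell coactivator POU2AF1 (-0.16 and -0.44) and the secretory regulator XBP1 (-0.32 and -0.25), the latter at -0.063 with overexpression and not past the test on exchange. PRDM1, which encodes Blimp-1, the repressor of the B cell program, stood at 30.2 and 32.6 TPM in shControl, 19.9 and 16.9 with sh1, 20.2 and 22.2 with sh2, 35 and 37.6 in Vector and 34.3 and 31.6 with overexpression. PRDM1 fell in the knockdown by 0.64 (SE 0.074, limma adjusted p = 1.0e-04) and was at -0.14 with overexpression, which passed after the median of ratios (-0.24) and quantile normalization (-0.23). TNFRSF13B, the receptor TACI, stood at 121 and 122 TPM in shControl, 102 and 104 with sh1, 105 and 105 with sh2, 112 and 105 in Vector and 121 and 119 with overexpression. Its effects of -0.22 and 0.14 became -0.06 and -0.02 with the controls exchanged. IGJ, the joining chain of secreted antibody, was at -0.25 and 0.17, the latter 0.06 after the median of ratios.

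Other genes with large falls in both effects were of several kinds. MYB, a transcription factor of blood progenitors, stood at 36.1 and 36 TPM in shControl, 21.1 and 18.4 with sh1, 20.1 and 22.2 with sh2, 34 and 33.3 in Vector and 20.6 and 19.6 with overexpression. MYB had a knockdown effect of -0.79 (SE 0.063, limma adjusted p = 1.2e-05) and an overexpression effect of -0.72 (SE 0.073, limma adjusted p = 9.7e-05). GAS6, the ligand of the TAM receptor kinases, stood at 21.1 and 19.9 TPM in shControl, 6.69 and 7.53 with sh1, 8.59 and 8.78 with sh2, 20.1 and 20.8 in Vector and 12.1 and 12.6 with overexpression, and fell more in the knockdown (-1.28) than with overexpression (-0.69; contrast -0.59, SE 0.081, limma adjusted p = 6.4e-04). KIAA1549L, a membrane protein, fell from 49.1 and 49.6 TPM to 22.3 to 30.1 TPM and from 42.7 and 41.9 TPM to 19.7 and 19.3 TPM. LOC102724594 had the largest shared fall (-2.60 and -2.56), but it is a near-identical copy of the splicing factor gene U2AF1 and ranged from 0 to 5.83 TPM among the hairpin libraries, so its value is uncertain. IL6R, the interleukin 6 receptor, fell by 1.09 and 0.45, the latter call lost on exchange (-0.102), and the endothelial marker PECAM1, also found on plasma cells, fell by 1.12 and 1.55.

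**Figure D4:**
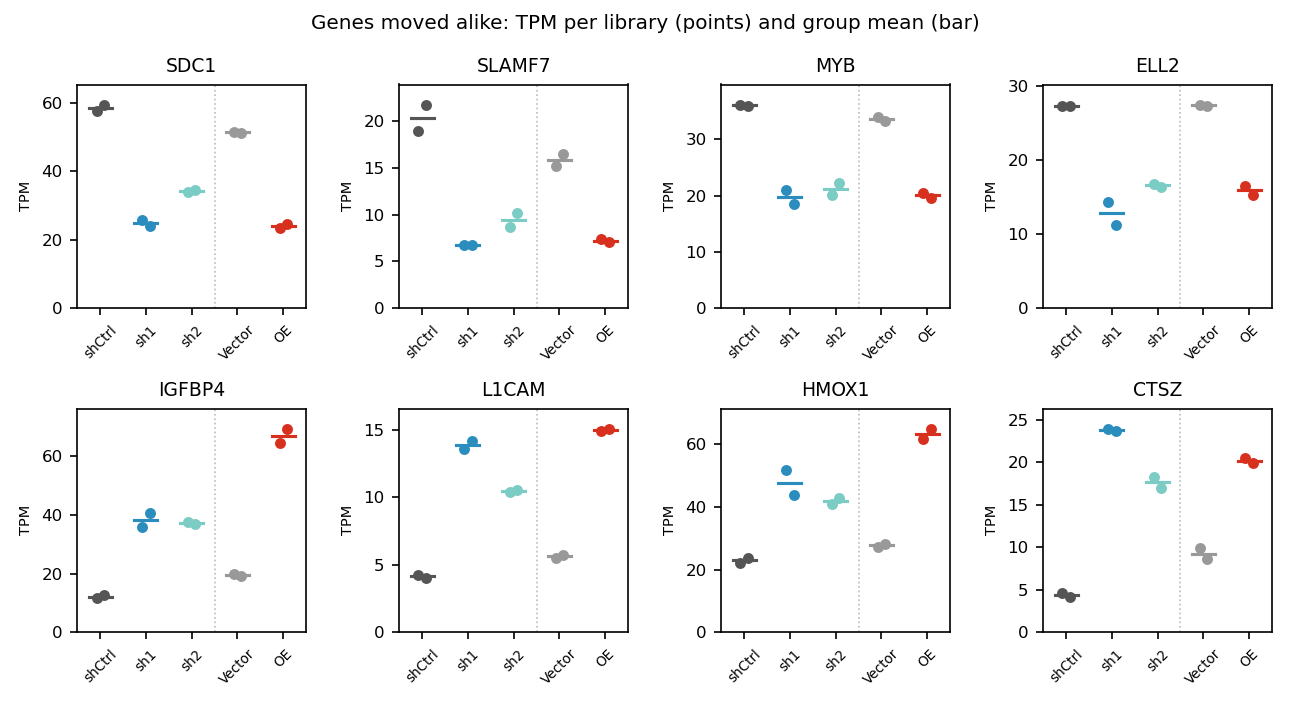
Each panel gives the TPM (y axis, from 0) of 1 gene in the 10 libraries (points) by group (x axis), with the group mean as a bar; shCtrl is shControl and OE is overexpression. SDC1, SLAMF7, MYB and ELL2 are lower with the hairpins and with overexpression than in both controls, and IGFBP4, L1CAM, HMOX1 and CTSZ are higher.

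The genes with the largest rises in both effects were of several kinds. IGFBP4, which binds insulin-like growth factors, stood at 11.7 and 12.6 TPM in shControl, 35.9 and 40.7 with sh1, 37.7 and 36.9 with sh2, 19.7 and 19.1 in Vector and 64.7 and 69.4 with overexpression. IGFBP4 had a knockdown effect of 1.56 (SE 0.055, limma adjusted p = 1.6e-07) and an overexpression effect of 1.74 (SE 0.064, limma adjusted p = 2.8e-07). L1CAM, a neural adhesion molecule, stood at 4.28 and 4.05 TPM in shControl, 13.6 and 14.2 with sh1, 10.4 and 10.6 with sh2, 5.54 and 5.73 in Vector and 14.9 and 15.1 with overexpression. L1CAM had a knockdown effect of 1.34 (SE 0.048, limma adjusted p = 1.6e-07) and an overexpression effect of 1.27 (SE 0.055, limma adjusted p = 7.2e-07). CTSZ, a lysosomal cathepsin, stood at 4.59 and 4.14 TPM in shControl, 23.9 and 23.7 with sh1, 18.3 and 17 with sh2, 9.87 and 8.58 in Vector and 20.5 and 19.9 with overexpression, with Vector above shControl. CTSZ had a knockdown effect of 2.003 (SE 0.085, limma adjusted p = 3.3e-07) and an overexpression effect of 1.05 (SE 0.098, limma adjusted p = 5.9e-05), and the contrast of 0.95 became -0.91 with the controls exchanged. F2R, the thrombin receptor, stood at 2.29 and 2.5 TPM in shControl, 16.1 and 14 with sh1, 10.9 and 11.3 with sh2, 5.35 and 5.62 in Vector and 11.1 and 11.1 with overexpression. Its effects were 2.04 and 0.90, and its contrast went from 1.13 to -0.74 on exchange.

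PLXNB2, a semaphorin receptor, was at 0.99 and 1.33, the protease ADAMTS10 at 1.07 and 0.95, and PLCB2, a phospholipase C, at 0.99 and 0.95. HMOX1, heme oxygenase 1, frees iron from heme and is a target of NRF2. HMOX1 stood at 22.1 and 23.6 TPM in shControl, 51.7 and 43.7 with sh1, 40.9 and 42.8 with sh2, 27.1 and 28.2 in Vector and 61.6 and 64.9 with overexpression. HMOX1 had a knockdown effect of 0.93 (SE 0.061, limma adjusted p = 3.9e-06) and an overexpression effect of 1.16 (SE 0.071, limma adjusted p = 5.1e-06). All of IGFBP4, L1CAM, CTSZ, F2R, PLXNB2, ADAMTS10, PLCB2 and HMOX1 were higher in both under the 3 scalings and the exchange. Among BCL2 family genes the killer proteins BCL2L11 (1.05 and 0.48) and BMF (0.92 and 0.63) rose in both, and the protector BCL2L1 fell in both (-0.49 and -0.47). These members were picked after their values were seen. Of 13 tested members 5 rose and 2 fell in the knockdown (38.5% and 15.4%, against 26.2% and 20.2% of all tested genes). With overexpression 4 rose and 3 fell (30.8% and 23.1%, against 26.6% and 10.3%). In both effects 2 rose (15.4%) and 2 fell (15.4%), against 11.7% and 5.1% of all tested genes. Both shared rises and 1 of the shared falls stayed under the scalings and the exchange.

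Most genes of the MYC and ribosome biogenesis list fell in each effect. MYC itself fell in the knockdown only, and many ribosomal protein genes fell with overexpression. MYC drives ribosome building, and its targets process ribosomal RNA. Of 28 members of the MYC and ribosome biogenesis list 24 fell and 1 rose in the knockdown (median -0.211), and 19 fell with overexpression (median -0.206). In 17 both fell, and 7 of the 17 stayed so under the scalings and the exchange. On exchange 12 fell and 3 rose in the knockdown (median -0.074). MYC itself stood at 470.4 and 492 TPM in shControl, 364 and 345 with sh1, 393 and 398 with sh2, 526 and 493 in Vector and 526 and 534 with overexpression. MYC fell in the knockdown by 0.36 (SE 0.033, limma adjusted p = 2.4e-05) and was at 0.06 with overexpression (SE 0.038, limma adjusted p = 0.26), which passed at 0.14 with the controls exchanged. UTP20, of the small subunit processome, stood at 12.6 and 13.5 TPM in shControl, 9.39 and 8.71 with sh1, 9.58 and 10.2 with sh2, 12.2 and 12.6 in Vector and 7.44 and 6.53 with overexpression. UTP20 had a knockdown effect of -0.42 (SE 0.065, limma adjusted p = 6.5e-04) and an overexpression effect of -0.75 (SE 0.076, limma adjusted p = 9.3e-05). RRS1, a ribosome assembly factor, fell with overexpression (-0.37, SE 0.044, limma adjusted p = 2.0e-04) and was at -0.08 in the knockdown, which passed after the median of ratios (-0.11). BOP1, another, fell in the knockdown (-0.35, SE 0.040, limma adjusted p = 1.0e-04) and was at -0.08 with overexpression, which passed after the median of ratios (-0.19) and quantile normalization (-0.16). On exchange the calls of BOP1 changed places, with 0.05 in the knockdown, which did not pass, and -0.48 with overexpression, and its contrast turned from -0.27 to 0.52. Ribosomal protein genes had 9 of 40 higher and 8 lower in the knockdown, and 1 higher and 22 lower with overexpression.

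Genes of G1/S and DNA replication fell in the knockdown. Of 30 members 27 fell and none rose in the knockdown (median -0.266), while 11 fell and 5 rose with overexpression (median -0.065), and 19 had a lower and 1 a higher contrast. That contrast depended on the controls: on exchange 6 were lower and 10 higher, and 18 fell and 3 rose in the knockdown (median -0.153). CCNE1, the cyclin that drives S phase entry, stood at 42.1 and 41 TPM in shControl, 20.5 and 18.4 with sh1, 25.2 and 24.5 with sh2, 34.2 and 34 in Vector and 32.4 and 32.8 with overexpression. CCNE1 fell in the knockdown (-0.89, SE 0.043, limma adjusted p = 6.4e-07) and was at -0.06 with overexpression, which passed at -0.34 on exchange. RRM1, a ribonucleotide reductase subunit, was at -0.32 and 0.17, the second lost after the median of ratios (0.06) and quantile normalization (0.09). GINS1, of the replicative helicase, fell in the knockdown (-0.38). G2/M and mitosis genes had 14 of 28 lower and 3 higher in the knockdown and 4 lower and 3 higher with overexpression. On exchange 16 were higher and 4 lower with overexpression and 20 contrasts were lower, and the median of ratios gave 12 lower with overexpression. CDKN1C, which encodes the cell cycle inhibitor p57, stood at 5.62 and 6.78 TPM in shControl, 5.24 and 5.55 with sh1, 4.62 and 5.48 with sh2, 5.71 and 5.77 in Vector and 17.6 and 17.4 with overexpression, rose with overexpression (1.45, SE 0.092, limma adjusted p = 6.3e-06) and was at -0.21 in the knockdown. The latter passed after the median of ratios (-0.24) and quantile normalization (-0.26).

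Many genes of protein folding fell in the knockdown, and 11 of 34 fell in both effects. Plasma cells secrete much antibody and rely on the unfolded protein response and the proteasome. In the list of the endoplasmic reticulum stress response 22 of 34 fell (64.7%) and 3 rose in the knockdown (median -0.222). With overexpression 14 fell (41.2%) and 2 rose (median -0.115). Both effects were down in 11 (32.4%, against 5.1% of all tested genes). After the median of ratios none rose and 22 fell with overexpression, and after quantile normalization none rose and 19 fell. On exchange 10 rose and 14 fell with overexpression. TXNDC5, a disulfide isomerase of secretory cells, stood at 1287 and 1315 TPM in shControl, 716 and 697 with sh1, 883 and 886 with sh2, 1571 and 1542 in Vector and 1634 and 1624 with overexpression. TXNDC5 fell in the knockdown (-0.72, SE 0.020, limma adjusted p = 6.3e-08); its overexpression effect of 0.07 passed (SE 0.023, limma adjusted p = 0.045) but was -0.04 after the median of ratios. SEC24D, a coat protein of secretory vesicles, fell in the knockdown (-0.65, SE 0.046, limma adjusted p = 6.0e-06) and was at -0.11 with overexpression. The latter passed after the median of ratios (-0.22) and quantile normalization (-0.21). VIMP, which helps export misfolded proteins and is also called SELENOS, rose in the knockdown (0.19, SE 0.030, limma adjusted p = 6.8e-04) and fell with overexpression (-0.21, SE 0.034, limma adjusted p = 0.0014), and stayed so under the scalings and the exchange. SEC31A fell with overexpression (-0.34), a call lost on exchange (-0.06).

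Most proteasome genes fell with overexpression. Of 31 subunits 13 fell and 5 rose in the knockdown (median -0.069), or 41.9% and 16.1%, against 20.2% and 26.2% of all tested genes. With overexpression 22 fell and none rose (median -0.195), and the share that fell was 71.0%, against 10.3%. The contrast was higher in 15 and lower in 3. On exchange the knockdown turned, with 16 higher and 2 lower (median 0.095), and 28 contrasts were higher and 1 lower. PSMB5, the catalytic subunit that bortezomib binds, stood at 131 and 125 TPM in shControl, 167 and 164 with sh1, 157 and 154 with sh2, 112 and 106 in Vector and 97.1 and 89.6 with overexpression. Hairpin libraries were above all controls and overexpression libraries below them. PSMB5 had a knockdown effect of 0.32 (SE 0.042, limma adjusted p = 2.4e-04) and an overexpression effect of -0.23 (SE 0.049, limma adjusted p = 0.0059). PSMB4, a core subunit, moved likewise (0.18 and -0.20), and both kept their class under the scalings and the exchange. PSMC2, an ATPase of the cap, fell with overexpression (-0.31) and PSMD2, a cap subunit, in the knockdown (-0.42), where the contrast of -0.35 became 0.13 on exchange. Heat shock chaperones had 10 of 20 lower (50.0%) and 3 higher (15.0%) in the knockdown. With overexpression 14 were lower (70.0%, against 10.3% of all tested genes) and 1 higher.

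Genes of the ATF4 amino acid response, which a lack of amino acids or stress switches on, mostly fell with overexpression. Of 34 members 16 fell and 2 rose in the knockdown (median -0.083), or 47.1% and 5.9%, against 20.2% and 26.2% of all tested genes. With overexpression 22 fell and 4 rose (median -0.213), or 64.7% and 11.8%, against 10.3% and 26.6%. The contrast was higher in 18 and lower in 5. DDIT4, an inhibitor of the growth kinase mTORC1 that hypoxia also induces, stood at 285 and 274 TPM in shControl, 270.4 and 262 with sh1, 266 and 267 with sh2, 308 and 299.9 in Vector and 500.1 and 530.3 with overexpression. DDIT4 was 1 of the 4 members that rose with overexpression (0.76, SE 0.035, limma adjusted p = 8.3e-07) and was at -0.07 in the knockdown. The latter passed after the median of ratios (-0.11) and on exchange (-0.19). DDIT3, which encodes the stress factor CHOP, stood at 11.1 and 11.1 TPM in shControl, 16.6 and 18.9 with sh1, 16.5 and 16.7 with sh2, 20.7 and 21.5 in Vector and 18.3 and 18.4 with overexpression. Its rise in the knockdown (0.59, SE 0.117, limma adjusted p = 0.0027) was -0.28 on exchange, when its contrast went from 0.78 to -0.96. ATF5, a related factor, was at -0.20 and 0.32, both of the other sign on exchange (0.25 and -0.13). VLDLR, a lipoprotein receptor, rose with overexpression (1.19, SE 0.109, limma adjusted p = 5.5e-05) from 4.27 and 4.87 TPM to 11.2 and 12.1 TPM and was at -0.19 in the knockdown.

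Interferon genes rose in the knockdown and mostly did not pass with overexpression, a difference that turned with the controls. Type I interferon acts through a complex that includes STAT2 and IRF9 to switch on antiviral genes. Of 34 tested members 23 rose and 3 fell in the knockdown (median 0.524), or 67.6% and 8.8%, against 26.2% and 20.2% of all tested genes. With overexpression 3 rose and 4 fell (median -0.076), or 8.8% and 11.8%, against 26.6% and 10.3%. The contrast was higher in 21 and lower in 2 (median 0.641). The list also stood higher in Vector than in shControl, in 17 members with none lower (median 0.441). With the controls exchanged 11 rose and 8 fell in the knockdown (median 0.162), 17 rose and 3 fell with overexpression (median 0.389), and 6 contrasts were higher and 12 lower (median -0.331).

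IFI44, an interferon-induced protein, rose strongly in the knockdown. IFI44 stood at 1.51 and 1.77 TPM in shControl, 7.3 and 7.99 with sh1, 5.99 and 6.73 with sh2, 2.59 and 2.83 in Vector and 2.31 and 2.67 with overexpression. Hairpin libraries were above both controls. IFI44 rose by 1.60 in the knockdown (SE 0.082, limma adjusted p = 9.5e-07) and was at -0.09 with overexpression (SE 0.095, limma adjusted p = 0.49), which was 0.40 and past the test on exchange. IRF9 stood at 9.03 and 8.67 TPM in shControl, 26.8 and 29.3 with sh1, 22.9 and 23.1 with sh2, 11 and 12.5 in Vector and 14.1 and 14.9 with overexpression and rose by 1.42 in the knockdown (SE 0.063, limma adjusted p = 4.0e-07). Its overexpression effect of 0.29 was lost after the median of ratios (0.18) and quantile normalization (0.17). IFIT3 (0.90 and -0.30) and IFIT2 (0.86 and -0.30), antiviral RNA-binding proteins, had contrasts of 1.20 and 1.16 that did not pass on exchange (0.30 and 0.08). The exonuclease ISG20 fell in the knockdown and rose with overexpression (-0.39 and 0.46).

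CD86, UBD and LRRN1, outside the lists, kept a called contrast on exchange, though that of LRRN1 fell from 1.47 to 0.32. CD86, a costimulatory ligand for T cells, stood at 5.01 and 5.14 TPM in shControl, 19.5 and 19.4 with sh1, 16.1 and 16.4 with sh2, 4.24 and 5.68 in Vector and 5.9 and 5.08 with overexpression. CD86 rose in the knockdown (1.63, SE 0.099, limma adjusted p = 2.3e-06) and was at 0.13 with overexpression (SE 0.114, limma adjusted p = 0.4). UBD, a ubiquitin-like modifier that cytokines induce, stood at 9.36 and 10.3 TPM in shControl, 32 and 32.7 with sh1, 24.3 and 24.8 with sh2, 7.99 and 10.1 in Vector and 8.54 and 10.7 with overexpression. UBD rose in the knockdown (1.43, SE 0.095, limma adjusted p = 4.1e-06) and was at 0.08 with overexpression. LRRN1, a leucine-rich repeat membrane protein, rose from 12.2 and 12.7 TPM to 31.7 to 41.7 TPM in the knockdown (1.47, SE 0.054, limma adjusted p = 1.7e-07), and its overexpression effect of -0.01 was 0.57 and past the test on exchange.

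Lysosome and autophagy genes rose in the knockdown, and 11 of them rose in both effects. TFEB and TFE3 switch on many of these genes. Of 35 members 27 rose and 3 fell in the knockdown (median 0.391), and 12 rose and 4 fell with overexpression (median 0.064). Up in both were 11 (31.4%, against 11.7% of all tested genes), and 4 of those 11 stayed so under the 3 scalings and the exchange. After the median of ratios 7 rose and 7 fell with overexpression. The contrast was higher in 19 and lower in 3 (median 0.217). In Vector 24 members stood above shControl and none below (median 0.3), and the knockdown rise of the list was lost on exchange: 13 then rose and 11 fell in the knockdown (median -0.014), 25 rose and 3 fell with overexpression (median 0.371), and 6 contrasts were higher and 21 lower (median -0.384). CTSL, a cathepsin, stood at 15.4 and 13.9 TPM in shControl, 33 and 32.4 with sh1, 29.99 and 29.9 with sh2, 20.5 and 21.4 in Vector and 19.5 and 22.3 with overexpression, and its contrast of 1.05 was 0.07 on exchange. CTSA stood at 118 and 124 TPM in shControl, 261 and 236 with sh1, 216 and 219.6 with sh2, 156 and 155 in Vector and 153 and 162 with overexpression. CTSA rose in the knockdown (0.93, SE 0.042, limma adjusted p = 4.4e-07) and was at 0.01 with overexpression, 0.37 and past the test on exchange. CTSS, the cathepsin that trims the class II invariant chain, stood at 29.5 and 27.5 TPM in shControl, 49.3 and 46.2 with sh1, 44.4 and 45.6 with sh2, 37.6 and 37.8 in Vector and 31 and 30.4 with overexpression. CTSS had a knockdown effect of 0.68 (SE 0.039, limma adjusted p = 1.8e-06) and an overexpression effect of -0.29 (SE 0.045, limma adjusted p = 0.0011), the second 0.10 and not past the test on exchange.

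For a few genes 1 control stood apart. HSPA1B, an inducible chaperone that shares near-identical sequence with HSPA1A and is uncertain for that reason, stood at 34.6 and 32.8 TPM in shControl, 33.9 and 33.2 with sh1, 32.4 and 29.9 with sh2, 115 and 114 in Vector and 37.6 and 39.4 with overexpression. Vector was the only high group, so that the overexpression effect of -1.55 (SE 0.066, limma adjusted p = 6.4e-07) became 0.19 and the contrast of 1.49 became -1.98 on exchange. SAT1, a polyamine acetylase, stood at 4.49 and 4.76 TPM in shControl, 6.56 and 5.78 with sh1, 5.79 and 5.48 with sh2, 12.7 and 13.1 in Vector and 9.97 and 8.91 with overexpression and was also highest in Vector. Its effects of 0.29 and -0.41 became -1.01 and 0.89. HIST1H3H, a histone H3 gene, rose in the knockdown (1.90, SE 0.233, limma adjusted p = 1.5e-04), and its contrast of 1.55 was -0.14 on exchange. Histone genes share sequence and most of their mRNAs lack a poly(A) tail, so their separate values are uncertain; of 15 tested 6 rose and 1 fell in the knockdown and 5 rose with overexpression.

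Genes that rose with overexpression alone included membrane and matrix genes. KCNJ4, an inward rectifier potassium channel, stood at 0.749 and 1.95 TPM in shControl, 0.953 and 0.925 with sh1, 0.633 and 1.2 with sh2, 1.72 and 1.76 in Vector and 7.36 and 6.75 with overexpression. KCNJ4 rose by 1.55 (SE 0.219, limma adjusted p = 6.0e-04) and was at -0.24 in the knockdown, which passed at -0.52 on exchange. P4HA2, a collagen prolyl hydroxylase, stood at 9.76 and 8.6 TPM in shControl, 7.84 and 7.82 with sh1, 6.94 and 7.61 with sh2, 10.1 and 10.8 in Vector and 22.7 and 22.3 with overexpression, and RCOR2, a corepressor subunit, at 2.05 and 2.08 TPM in shControl, 2.03 and 1.86 with sh1, 1.65 and 1.71 with sh2, 2.49 and 2.43 in Vector and 6.43 and 6.53 with overexpression. P4HA2 rose with overexpression (1.04, SE 0.113, limma adjusted p = 1.4e-04) and RCOR2 too (1.11, SE 0.079, limma adjusted p = 1.2e-05). Their knockdown effects of -0.25 and -0.13 did not pass but did after quantile normalization (-0.30 and -0.21) and on exchange (-0.42 and -0.30).

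Ferroptosis genes, which the study's title concerns, went in both directions within each list. Of 35 tested suppressors 10 rose and 12 fell in the knockdown, 3 rose and 10 fell with overexpression, and the contrast was higher in 8 and lower in 4. Of 31 drivers 8 rose and 9 fell in the knockdown, and 6 rose and 7 fell with overexpression. The driver contrast was higher in 4 and lower in 8. Of all tested genes 26.2% rose and 20.2% fell in the knockdown, and 26.6% rose and 10.3% fell with overexpression. Contrasts of all tested genes were higher in 11.4% and lower in 18.5%. With overexpression 8.6% of suppressors rose and 28.6% fell, and 19.4% of drivers rose and 22.6% fell. Higher and lower contrasts made up 22.9% and 11.4% of suppressors and 12.9% and 25.8% of drivers. On exchange 8 and 10 suppressor contrasts and 4 and 13 driver contrasts were higher and lower, and 15 drivers rose with overexpression. GPX4, which reduces lipid peroxides, stood at 303 and 302 TPM in shControl, 368 and 379.7 with sh1, 352 and 349 with sh2, 336 and 312 in Vector and 363 and 355 with overexpression. GPX4 rose in the knockdown (0.26, SE 0.033, limma adjusted p = 1.9e-04) and with overexpression (0.15, SE 0.038, limma adjusted p = 0.013), the latter lost after the median of ratios (0.04), and its contrast was 0.11 (SE 0.050, limma adjusted p = 0.13). AIFM2, which encodes the suppressor FSP1, stood at 14 and 13.8 TPM in shControl, 14 and 14 with sh1, 13.4 and 14.2 with sh2, 12 and 11.5 in Vector and 9.34 and 9.07 with overexpression. AIFM2 fell with overexpression (-0.32, SE 0.059, limma adjusted p = 0.0026) and was at -0.001 in the knockdown, which passed at 0.22 on exchange. NQO1, a quinone reductase, had a knockdown effect of 0.14 (SE 0.039, limma adjusted p = 0.014) and an overexpression effect of -0.41 (SE 0.045, limma adjusted p = 1.5e-04), the first 0.11 and not past the test after the median of ratios. FANCD2, a DNA repair protein, fell in the knockdown (-0.39). SLC7A11, the cystine carrier that feeds glutathione synthesis, stood between 0.24 and 0.831 TPM and was not tested.

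Of the drivers, ACSL4, which loads polyunsaturated fatty acids into phospholipids, stood at 17.5 and 17.4 TPM in shControl, 13.1 and 11.3 with sh1, 12.4 and 13.6 with sh2, 16.6 and 19.3 in Vector and 18.4 and 16.2 with overexpression. ACSL4 fell in the knockdown (-0.45, SE 0.086, limma adjusted p = 0.0024) and was at -0.05 with overexpression; the contrast of -0.40 (SE 0.132, limma adjusted p = 0.048) was lost under all 3 other scalings (-0.33, -0.32 and -0.38). It was also lost (-0.29 to -0.43) without either shControl library, either sh2 library, sh1 replicate 2, Vector replicate 1 or overexpression replicate 1. LPCAT3, an acyltransferase of the same lipids, rose in the knockdown (0.21) and did not on exchange (0.08). CYB5R1, an electron donor for lipid peroxidation, rose in the knockdown (0.43, SE 0.029, limma adjusted p = 4.5e-06), with a contrast of 0.45 that was -0.01 on exchange. PEX3, a peroxisome assembly factor, was at -0.24 and 0.23, which were -0.03 and 0.01 on exchange.

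Iron genes showed single contrasts. Of 29 tested members 5 rose and 12 fell in the knockdown, 5 rose and 7 fell with overexpression, and the contrast was higher in 3 and lower in 7 (10.3% and 24.1%, against 11.4% and 18.5% of all tested genes). On exchange 15 rose and 8 fell with overexpression and 15 contrasts were lower. SLC40A1, the iron exporter ferroportin, stood at 0.95 and 1.45 TPM in shControl, 2.94 and 2.74 with sh1, 2.9 and 2.68 with sh2, 1.19 and 1.51 in Vector and 1.03 and 1.06 with overexpression. SLC40A1 rose in the knockdown (0.80, SE 0.116, limma adjusted p = 4.2e-04) and was at -0.20 with overexpression, and its contrast (1.002, SE 0.176, limma adjusted p = 0.0026) held on exchange. TFRC, the transferrin receptor that imports iron, stood at 202 and 203 TPM in shControl, 162 and 139.9 with sh1, 157 and 158 with sh2, 182 and 185 in Vector and 169 and 166 with overexpression. TFRC fell in the knockdown (-0.39, SE 0.049, limma adjusted p = 1.9e-04) and was at -0.13 with overexpression (SE 0.057, limma adjusted p = 0.096). The latter passed after the median of ratios (-0.24) and on exchange (-0.27). The TFRC contrast of -0.26 was -0.21 after quantile normalization and 0.02 on exchange and passed in neither. It was also lost (-0.24 to -0.27) without any 1 library other than those of sh1. FTL, the ferritin light chain that stores iron, stood at 973 and 943 TPM in shControl, 1059 and 1057 with sh1, 1013 and 990.4 with sh2, 1221 and 1284 in Vector and 1614 and 1729 with overexpression. FTL rose with overexpression (0.41, SE 0.039, limma adjusted p = 6.3e-05); in the knockdown it was at 0.10, which passed (SE 0.034, limma adjusted p = 0.031) but was 0.07 after the median of ratios and -0.28 on exchange. FTH1, the heavy chain, was at 0.05 and -0.07, and NCOA4, which delivers ferritin to lysosomes, at 0.06 and 0.24, the latter 0.13 after the median of ratios. On exchange FTH1 passed in both effects (-0.22 and 0.20). ABCB6, a porphyrin carrier, had a knockdown effect of -0.31 (SE 0.049, limma adjusted p = 6.6e-04) and an overexpression effect of 0.37 (SE 0.056, limma adjusted p = 8.6e-04). ISCU, the scaffold for iron-sulfur clusters, had a knockdown effect of 0.34 (SE 0.031, limma adjusted p = 2.6e-05) and an overexpression effect of -0.15 (SE 0.036, limma adjusted p = 0.0088), and both genes kept their class under the scalings and the exchange. SLC25A37, which brings iron into mitochondria, was at -0.31 and 0.25, the latter 0.14 after the median of ratios. IREB2 (-0.12 and 0.12), PCBP2 (0.04 and 0.01) and STAT3 (-0.07 and 0.003) passed in neither effect as reported. The contrast of IREB2 did pass (-0.24, SE 0.070, limma adjusted p = 0.029), and on exchange IREB2 passed in both effects (-0.21 and 0.21). STAT3 passed in the knockdown after the median of ratios (-0.10), quantile normalization (-0.10) and exchange (-0.11). PCBP2 passed with overexpression after the median of ratios (-0.10) and in the knockdown after quantile normalization (0.10).

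**Figure D5:**
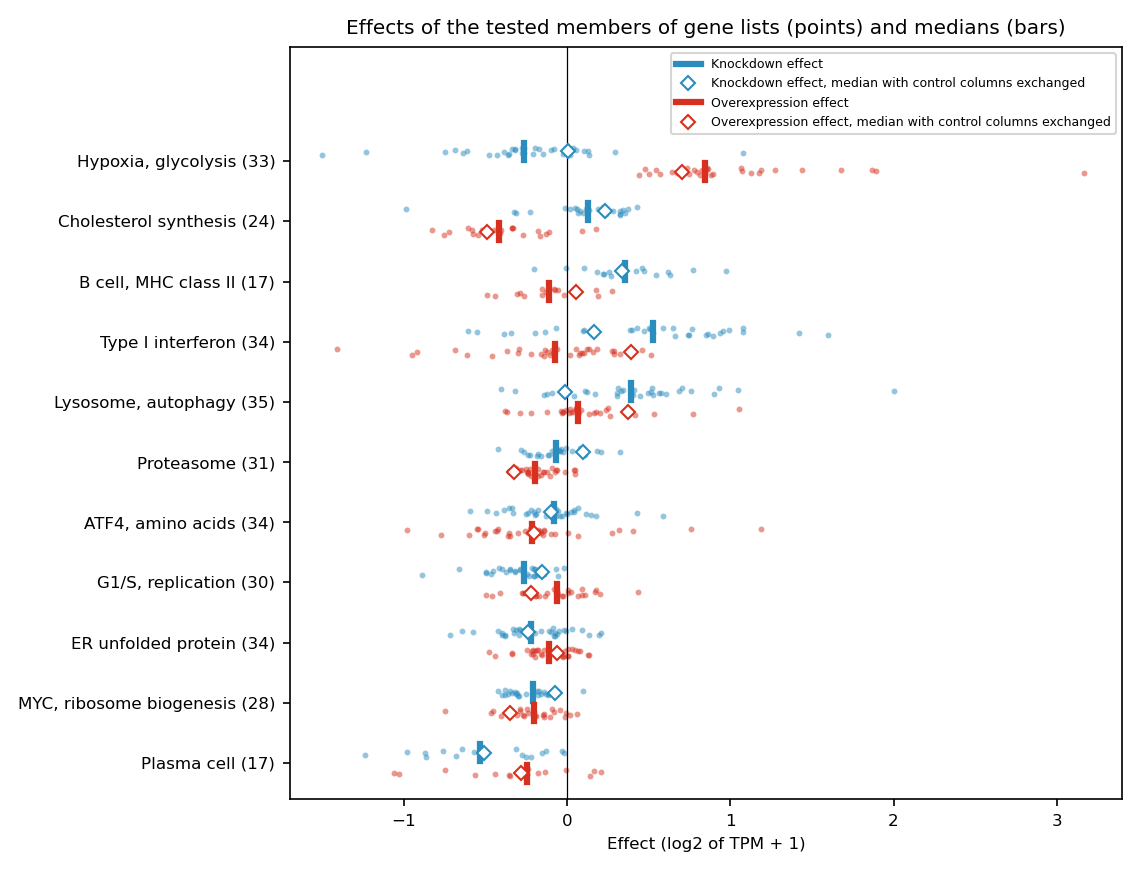
Points are the tested members of 11 gene lists (y axis, number tested in brackets) by their knockdown effect (blue) and overexpression effect (red) in log2(TPM + 1) (x axis); bars are medians and diamonds are medians with the control columns exchanged. Hypoxia members stand at a median of -0.266 and 0.846 and cholesterol members at 0.125 and -0.418. Both medians are below 0 for the plasma cell, MYC, endoplasmic reticulum, G1/S, proteasome and ATF4 lists.

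Of myeloma oncogenes and drug response genes 11 of 24 fell and 7 rose in the knockdown, and 5 fell and 7 rose with overexpression; on exchange 15 fell and 3 rose in the knockdown and 3 fell and 13 rose with overexpression. FGFR3, the receptor kinase that a translocation activates in this line, stood at 1088 and 1096 TPM in shControl, 795 and 804 with sh1, 873 and 879 with sh2, 1233 and 1232 in Vector and 1417 and 1415 with overexpression. FGFR3 had a knockdown effect of -0.38 (SE 0.020, limma adjusted p = 1.1e-06) and an overexpression effect of 0.20 (SE 0.023, limma adjusted p = 2.0e-04), the second 0.09 and not past the test after the median of ratios. The NRF2 and glutathione list had 12 of 26 higher and 7 lower in the knockdown and 7 higher and 10 lower with overexpression; in it the NADPH-forming enzymes ME1 (0.30 and -0.44) and IDH1 (0.44 and -0.21) moved oppositely, but on exchange IDH1 did not pass with overexpression (-0.099). For background, 26.2% of tested genes rose and 20.2% fell with the hairpins, and with overexpression 26.6% rose and 10.3% fell. Oxidative phosphorylation subunits had 7 of 32 higher (21.9%) and 8 lower (25%) in the knockdown, and 3 higher (9.4%) and 14 lower (43.8%) with overexpression. Actomyosin genes had 10 of 29 higher (34.5%) and 6 lower in the knockdown, and 14 higher (48.3%) and none lower with overexpression, which became 5 higher and 1 lower after the median of ratios. For p53 targets the knockdown counts of 7 of 21 higher and 6 lower became 4 and 8 on exchange, and the overexpression counts of 9 and 4 became 12 and 3. NF-kB genes had 10 of 20 higher and 3 lower in the knockdown and 7 higher and 7 lower with overexpression, the latter 3 and 9 after the median of ratios. The IL6, JAK and STAT3 list had 3 of 15 higher and 6 lower in the knockdown, and 2 higher and 5 lower with overexpression, the latter 6 and 4 on exchange.

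At the threshold between opposite and not, MAFF (larger adjusted p 0.0495) and C17orf75 (0.0497) lay just inside, and SEPT6 (0.0504) and CAMK1D (0.0508) just outside, by limma with Benjamini-Hochberg adjustment. MAFF had effects of -0.479 and 0.392, and SEPT6 of -0.404 and 0.151.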

How the data were processed

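Values were TPM as deposited by the authors, 1 per gene and library. The submitters' processing notes list the genome GRCh38.p13 and, without their roles, DESeq2 1.4.5, RSEM 1.3.1, HISAT and Bowtie2 2.3.4.3. Log2(TPM + 1) was computed here; it understates changes of low genes. The limma package (3.58.1, R 4.3.3) fitted 6 group means over 12 libraries using eBayes with its trend option. Adjustment was by Benjamini-Hochberg over 12731 genes, and 0.05 was the threshold for a call. The fit was tested on simulated data. Inhibitor libraries entered only the estimate of spread. A count model was not used, and depth is unknown. The replicate numbers were not taken to pair libraries.

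Genes named are STK17B and STK17A, a panel of 14, up to 8 protein-coding genes per class (at least 5 TPM in a group, no overlap between libraries in either effect, ranked by the smaller effect), up to 6 per direction called in the contrast but in no class, and up to 4 in each of 17 of the 32 lists by contrast. Other members named were chosen after their values were seen, as were CD7 and CD3E. Some genes that the rule chose are not reported here. Members and lists were chosen with earlier results of these data known. Alternatives were pseudocounts of 0.1 and 0.5, no filter or 5 TPM, only the 10 libraries, 3 scalings, 2 variance models, single hairpins, other controls, a block for the replicate number, and each library left out in turn. Coordinates are from GENCODE v29 (23668 of 29607 symbols matched) and promoters from RefSeq (GRCh38.p14; 24990 symbols matched a RefSeq gene).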

Additional observations from a re-analysis of the deposited data

Results flagged for a closer look

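The knockdown effect joins 2 hairpins, and for 13 of the named genes the sh2 effect differed from the sh1 effect in a limma test of sh2 against sh1; 1.55% of all tested genes did. The cause was not tested. Of the genes moved oppositely, sh2 minus sh1 was 0.65 for ADM and 0.33 for ANKRD37 and 0.13 for FGFR3, which all fell less with sh2, and -0.19 for HLA-DQA1, which rose less. Of the genes lower in both effects, sh2 minus sh1 was 0.45 for SDC1, 0.42 for SLAMF7, 0.39 for KIAA1549L, 0.34 for TNFRSF17 and 0.19 for FADS2. Of those higher in both it was -0.41 for F2R and -0.38 for L1CAM, which rose less with sh2. CCNE1 (0.34) and TXNDC5 (0.32), which fell in the knockdown, fell less with sh2. In all 13 genes the change was nearer to 0 with sh2. STK17B itself stood at 14.7 and 14.5 TPM with sh2 and at 12.7 and 10.9 TPM with sh1. That difference did not pass (sh2 minus sh1 0.29, SE 0.084, limma adjusted p = 0.12), and a link between the level of STK17B and these genes was not tested.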

How the results depend on the processing

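Counts of genes depended on the scaling and on which control served which effect. With the control columns exchanged, 5763 genes had a lower contrast (2361 as reported), 1903 fell in the knockdown and rose with overexpression (479), and 531 went the other way (183). With the mean of all 4 control libraries, which both effects then share, these were 5658, 1144 and 329. After the median of ratios 302 and 336 genes moved oppositely, 875 rose in both and 1282 fell in both, against 1490 and 649. Quantile normalization gave 340 opposite genes higher in the knockdown, 971 up in both and 1186 down in both. Leaving out 1 library in turn gave 1054 to 1518 higher and 1700 to 2471 lower contrasts, 133 to 185 and 310 to 499 genes moved oppositely, 1075 to 1508 up in both and 460 to 686 down in both; the lowest of the 310 to 499 was without shControl replicate 2. The contrast of STK17B lay between -2.796 and -2.406 in every setting.

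Samples with the same replicate number did not deviate together (correlations from -0.104 to 0.14 between groups), so the numbers were not read as pairs. A replicate block gave 1391 higher and 2288 lower contrasts, 174 and 452 genes moved oppositely and 1456 and 623 alike, and STK17B stayed at -2.549.

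For 105 named genes other than STK17B, 2480 of 2622 contrasts over 25 settings kept their direction and call, 68 no longer passed, 21 newly passed and 53 turned. The causes were not tested. On exchange of the controls contrasts turned below 0 for CYB5R1 (-0.008), ST8SIA4 (-0.067), GPX4 (-0.088), SEC31A (-0.092), HIST1H3H (-0.142), LPCAT3 (-0.147), FTH1 (-0.412), ELOVL6 (-0.421), ADAMTS10 (-0.446), EPHX1 (-0.456), L1CAM (-0.652), F2R (-0.737), CTSZ (-0.907), DDIT3 (-0.965), PLCB2 (-1.185), SAT1 (-1.903) and HSPA1B (-1.981). They turned above 0 for TFRC (0.019), MYB (0.12), LOC102724594 (0.126), PSMD2 (0.133), TNFRSF17 (0.269), ATF5 (0.382), SLAMF7 (0.465) and BOP1 (0.524). With the mean of all 4 controls LPCAT3 (-0.022), DDIT3 (-0.092), FTH1 (-0.147), ADAMTS10 (-0.165), HSPA1B (-0.246), L1CAM (-0.291), PLCB2 (-0.572), SAT1 (-0.598), MYB (0.022), LOC102724594 (0.044), BOP1 (0.128) and SLAMF7 (0.129) turned. The remaining turns were of contrasts that had not passed, except KIAA1549L: STAT3 after the median of ratios (0.004), MYB (0.034) and LOC102724594 (0.06) after quantile normalization, KIAA1549L (-0.007), SDC1 (-0.138) and LOC102724594 (0.651) with sh1 alone, and L1CAM (-0.119), SLAMF7 (0.006) and ELL2 (0.059) with sh2 alone. Leaving out 1 library turned PLCB2 (-0.118 to 0.199) and LOC102724594 (-0.458 to 0.381). TPM carries no depth, so counting error cannot be given, and 2 libraries per group limit the precision.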
